A study of Mus musculus with 6 samples.

Results

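Nuclear genes for the oxidative phosphorylation machinery were compared between epiblast-like cells (EpiLCs) that lacked Cables2 and wild-type EpiLCs. Members were the table rows with a symbol starting with Nduf, Sdha to Sdhd, Uqcr, Atp5 or Cox4 to Cox8, with pseudogene names left out and at least 10 counts summed over the libraries. This left 94 of 49585 rows: 45 for complex I, 8 for complex II, 8 for complex III, 17 for complex IV and 16 for complex V. Despite its symbol, Atp5sl was counted with complex I and its assembly factors, and Ndufa4 and Ndufa4l2 were counted with complex IV. Just inside the minimum were Cox4i2 with 14 counts and Cox7b2 with 16, and just outside were Cox6a2 and Cox8c with 9 counts each and Cox8b with 0. The samples were 3 libraries labelled Cables2-/- (KO) and 3 libraries labelled wild type (WT), all of the C57BL/6 strain and all taken on day 2 after induction. EpiLCs resemble, in culture, the epiblast shortly after implantation. In both groups, mouse embryonic stem cells (ESCs) kept with LIF, CHIR99021 and PD0325901 were moved to activin A, bFGF and 1% KSR on fibronectin. RNA was sequenced after ribosomal RNA depletion, in paired ends of 36 bases. How many ESC lines or cultures gave rise to the libraries of a group is not given in the labels, so p-values cover no more than the spread among these libraries, and that spread may be technical.

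Oxidative phosphorylation takes place in the inner mitochondrial membrane. Complex I (NADH dehydrogenase) and complex II (succinate dehydrogenase) pass electrons to ubiquinone, complex III passes them on to cytochrome c, and complex IV (cytochrome c oxidase) passes them to oxygen. Complexes I, III and IV pump protons, and complex V (ATP synthase) uses the gradient to make ATP. Most subunits come from nuclear genes, and a small set comes from mitochondrial DNA, which encodes none of complex II. Naive ESCs use respiration beside glycolysis, whereas primed epiblast stem cells rely largely on glycolysis.

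The libraries held 4442618 to 5206717 counts in KO and 4234788 to 4848967 counts in WT. Cables2, the deleted gene, had 6, 11 and 4 counts in KO libraries 04, 05 and 06, against 114, 111 and 121 counts in WT libraries 01, 02 and 03. Of 9 EpiLC markers, 4 rose and 1 fell, and of 11 tested markers of naive ESCs, 1 rose and 8 fell. Among all tested genes, 8.13% rose and 9.13% fell. The naive markers summed to 301 to 314 CPM in KO libraries and to 501 to 576 CPM in WT libraries, where CPM is the count scaled to library size (counts per 1e+06 counts) with edgeR's TMM factors. The EpiLC markers summed to 5522 to 5698 CPM in KO libraries and to 5137 to 5347 CPM in WT libraries. The part of these shifts in the results below was not tested. Of 4 tested markers of primitive endoderm, 0 rose and 2 fell, and the list summed to 76.9 to 82.8 CPM in KO libraries and to 109 to 117 CPM in WT libraries. Of 12 fibroblast markers, 3 (Lum, Postn and Fap) were at 0 in all libraries, 1 of 5 tested rose (Acta2), and the list summed to 118 to 134 CPM in KO and 110 to 124 CPM in WT. Since the RNA is from bulk cells, fewer cells with a transcript and less of it per cell cannot be told apart.

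Most oxidative phosphorylation genes differed little between KO and WT EpiLCs, and the calls lay in complexes I, IV and V. Of 91 members with enough counts to be tested, 7 rose, 2 fell and 82 did not pass (edgeR's quasi-likelihood test, Benjamini-Hochberg adjusted over all 11594 tested genes, adjusted p under 0.05). This is 9.89% of the members, against 17.3% called among all tested genes, where 8.13% rose and 9.13% fell. The genes that rose were Cox6b2, Cox5b, Cox7b and Cox6a1 of complex IV, Atp5o and Atp5d of complex V and Ndufa11 of complex I. The genes that fell were Cox7a1 and Ndufa4, both assigned to complex IV. At an unadjusted p under 0.05, 24 members passed, against 29.4% of all tested genes.

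The fitted changes were small and lay more often above 0 than below. The median log2 fold change (KO minus WT) of the tested members was 0.09, against 0.01 for all tested genes, and 68 of 91 members (74.7%) were above 0, against 51.4% of all tested genes. In 20 members every KO library was above every WT library (15.6% of all tested genes), in 2 it was below (16.0% of all tested genes), and in 69 the groups overlapped. Non-overlapping groups thus made up 24.2% of the members and 31.6% of all tested genes. DESeq2 called 3 of the members, Cox6b2, Cox5b and Atp5o, and 10.6% of all genes that it tested.

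**Figure D1:**
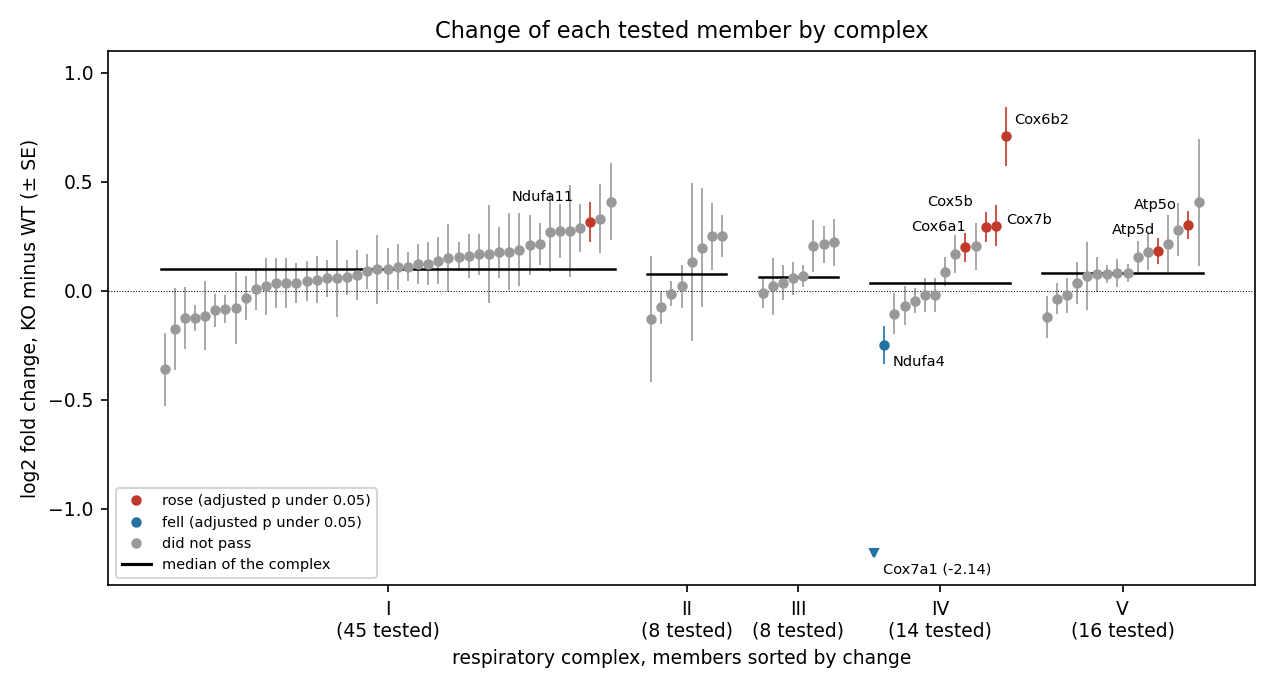
The plot shows the log2 fold change, KO minus WT, of each of the 91 tested members with its standard error, sorted within complexes I to V, with a line at each median. Called genes are coloured and named, Cox7a1 is drawn at the lower edge with its value of -2.14, and most points of complexes I, III and V lie slightly above 0.

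Summed over all 94 members, the transcripts made up 9126, 9498 and 9280 CPM in KO libraries 04, 05 and 06, against 8710, 8914 and 8822 CPM in WT libraries 01, 02 and 03. All KO libraries lay above all WT libraries, by 5.52% on average. The sum of complex V was 4366 ± 93.3 CPM in KO and 4105 ± 23.2 CPM in WT (SD, n = 3 each), 6.36% higher in KO with no overlap. The F1 subunit genes Atp5a1 and Atp5b hold most of this sum, and without them the sum of complex V was 8.30% higher in KO, again with no overlap. Complex I summed to 2331 ± 37.5 CPM in KO and 2224 ± 38.1 CPM in WT, 4.82% higher in KO with no overlap. Complex IV summed to 1250 ± 34.8 CPM in KO and 1188 ± 25.6 CPM in WT, 5.22% higher with no overlap. For complex III the sums overlapped, with 910 ± 26.6 CPM in KO and 861 ± 19.7 CPM in WT. Complex II was nearest to equal, with 445 ± 2.62 CPM in KO and 437 ± 19.2 CPM in WT and overlapping libraries. Its ratio of KO to WT, 1.02, turned to 0.995 without WT library 03. These sums carry no test, since they follow from the choice of members.

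**Figure D2:**
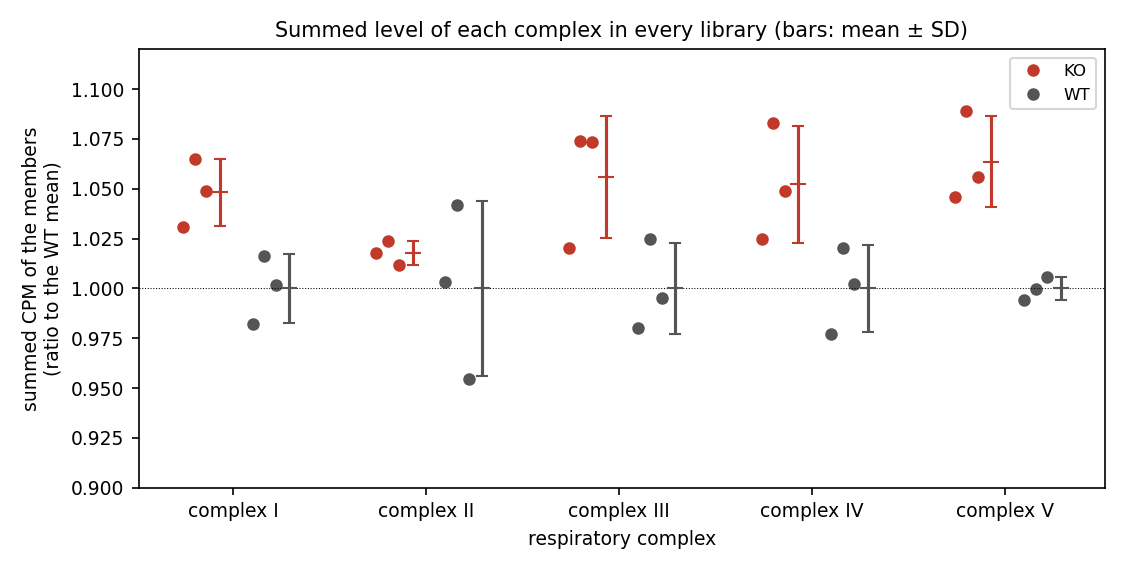
The plot shows the summed CPM of the members of each complex, divided by the mean of the WT libraries, in every library, with the group mean ± SD beside the points (n = 3 each). KO libraries lie above all WT libraries in complexes I, IV and V and overlap with them in complexes II and III.

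Complex IV held 6 of the 9 calls, 4 up and 2 down among 14 tested members, and its median log2 fold change was 0.03. Called were thus 42.9% of its tested members, against 17.3% of all tested genes. DESeq2 called 2 members of complex IV, against 10.6% of all genes that it tested. Both tested tissue isoforms of complex IV were among the 6 edgeR calls, with opposite directions. Cox6b2 encodes the form of subunit 6b known from testis and sperm. It had 31.1, 35.1 and 41.4 CPM in KO libraries 04, 05 and 06, against 21.6, 21.9 and 22.2 CPM in WT libraries 01, 02 and 03. Every KO library was above every WT library, and KO library 06 was the highest. The log2 fold change was 0.71 ± 0.13 (SE; edgeR adjusted p = 2.91e-05), and it stayed between 0.60 and 0.80 under the alternatives, with adjusted p from 7.60e-06 to 0.00222. Cox6b1, the widely expressed form of the same subunit, had 64.9 ± 5.77 CPM in KO and 68.4 ± 4.49 CPM in WT (SD, n = 3 each) and did not pass (log2 fold change -0.07 ± 0.09, adjusted p = 0.664).

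Cox7a1 encodes the subunit 7a form of heart and skeletal muscle. It had 2, 6 and 2 counts in KO libraries 04, 05 and 06, against 16, 13 and 12 counts in WT libraries 01, 02 and 03. All KO libraries were below all WT libraries, and all values were low. The ratio of KO to WT over the summed counts was 0.221, with an exact 95% interval of 0.0987 to 0.449 that covers counting error only. The log2 fold change was -2.14 ± 0.53 (edgeR adjusted p = 0.00195). It was -2.79 without KO library 05 and -1.86 without KO library 04, with adjusted p from 0.00191 to 0.026 over the alternatives. DESeq2 gave no adjusted p for this gene. Of 11 muscle and heart markers, 3 had enough counts to be tested. By edgeR 0 passed (17.3% of all tested genes), and by DESeq2 0 passed (10.6%). At an unadjusted p under 0.05, 0 passed (29.4%). With 3 genes tested, these counts show little either way. The list summed to 54.7 to 64.8 CPM in KO and 49.1 to 59.9 CPM in WT.

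The promoters of these opposed isoform genes are shown with those of Cox6a1 and Ndufa11, the called members that held a searched motif. Capitals mark perfect matches to CGCATGCG (NRF1, nuclear respiratory factor 1) or to CCGGAAG (ETS factors such as GABP) on either strand, and each sequence runs 5′ to 3′ on the strand of its gene. The sequences are from RefSeq, build GRCm38.p6, from 250 bases before to 50 bases after the annotated start: Cox6b2 at chr7:4753045-4753344 (minus strand), Cox7a1 at chr7:30183921-30184220 (plus strand), Cox6a1 at chr5:115348909-115349208 (minus strand) and Ndufa11 at chr17:56717512-56717811 (plus strand).
Cox6b2: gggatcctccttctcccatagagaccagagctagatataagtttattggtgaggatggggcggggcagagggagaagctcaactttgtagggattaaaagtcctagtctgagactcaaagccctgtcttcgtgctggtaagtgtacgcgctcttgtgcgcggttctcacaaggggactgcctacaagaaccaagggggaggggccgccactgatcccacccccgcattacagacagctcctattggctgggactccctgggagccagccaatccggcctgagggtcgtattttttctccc
Cox7a1: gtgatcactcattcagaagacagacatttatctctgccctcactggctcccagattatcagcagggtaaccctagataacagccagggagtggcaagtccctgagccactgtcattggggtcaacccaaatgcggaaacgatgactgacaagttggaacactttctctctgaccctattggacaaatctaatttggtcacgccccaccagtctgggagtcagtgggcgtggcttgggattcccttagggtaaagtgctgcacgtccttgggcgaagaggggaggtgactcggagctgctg
Cox6a1: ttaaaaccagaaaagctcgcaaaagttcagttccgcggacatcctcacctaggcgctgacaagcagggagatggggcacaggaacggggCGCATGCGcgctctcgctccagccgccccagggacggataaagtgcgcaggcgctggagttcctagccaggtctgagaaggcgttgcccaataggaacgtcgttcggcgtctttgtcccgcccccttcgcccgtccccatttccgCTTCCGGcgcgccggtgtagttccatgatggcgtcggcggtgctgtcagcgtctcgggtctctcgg
Ndufa11: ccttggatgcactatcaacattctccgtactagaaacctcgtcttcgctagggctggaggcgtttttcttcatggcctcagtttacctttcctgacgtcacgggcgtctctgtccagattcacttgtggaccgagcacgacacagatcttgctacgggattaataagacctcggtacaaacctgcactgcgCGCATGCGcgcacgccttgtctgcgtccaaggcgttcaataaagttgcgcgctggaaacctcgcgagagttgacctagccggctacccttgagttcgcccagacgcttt
The NRF1 match began 161 bases before the start in Cox6a1 and 59 bases before it in Ndufa11, and the ETS match of Cox6a1, on the opposite strand, began 16 bases before the start.

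Motifs were looked up in the promoters of the 80 members with a RefSeq entry and of all 27025 genes with one. CGCATGCG was found in 11 members (13.8%), against 2.07% of all genes. CCGGAAG was found in 21 members (26.3%), against 9.93% of all genes. AAGATGGCG, the YY1 motif, was found in 9 members (11.3%), against 1.64% of all genes, and TCAAGGTCA, the motif of the estrogen-related receptors, in 2 members (2.5%), against 0.466%. Matches were perfect and on either strand, and the motifs as searched may overlap each other. Of the 9 called members, all with a promoter entry, 2 held CGCATGCG, 1 held CCGGAAG and 0 held either of the others. A match describes the letters in this window and nothing about binding.

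The other calls in complex IV were in subunits present in most tissues. Cox5b, a zinc-binding subunit on the matrix side, had 141, 138 and 134 CPM in KO libraries 04, 05 and 06, against 102, 114 and 123 CPM in WT libraries 01, 02 and 03. The groups did not overlap, and the log2 fold change was 0.29 ± 0.07 (edgeR adjusted p = 0.000999). Cox5b was called in every alternative, with adjusted p from 0.000278 to 0.0268. Of its 36-base stretches, 30.5% also occur in another annotated gene, so its count is uncertain.

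Cox7b, a small membrane subunit, had 69.3, 84.6 and 61.3 CPM in KO libraries 04, 05 and 06, against 58.9, 61.0 and 55.8 CPM in WT libraries 01, 02 and 03. KO library 05 was well above the rest, and KO library 06 was just above the highest WT library. The fitted change was 0.30 ± 0.09 on the log2 scale (edgeR adjusted p = 0.0173). Without KO library 05 it was 0.16 (adjusted p = 0.333), and the call was also lost without WT library 03 (adjusted p = 0.0715) and with DESeq2 (adjusted p = 0.139). Its adjusted p ran from 0.00367 to 0.333 over the alternatives.

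Cox6a1, the widely expressed form of subunit 6a, had 137, 132 and 142 CPM in KO libraries 04, 05 and 06, against 122, 116 and 120 CPM in WT libraries 01, 02 and 03. The groups did not overlap, and the log2 fold change was 0.20 ± 0.07 (edgeR adjusted p = 0.0277). This call was lost without KO library 04, KO library 06, WT library 02 or WT library 03 and with DESeq2, with log2 fold changes of 0.17 to 0.22 and adjusted p from 0.0159 to 0.118 over the alternatives. Of its 36-base stretches, 20.3% occur in other genes.

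Ndufa4, named as a complex I subunit and later assigned to complex IV, had 67.3, 76.1 and 58.8 CPM in KO libraries 04, 05 and 06, against 73.3, 81.3 and 86.8 CPM in WT libraries 01, 02 and 03. KO library 05 lay above WT library 01, so the groups overlapped. The log2 fold change was -0.25 ± 0.09 (edgeR adjusted p = 0.0392). The call was lost without KO library 04, KO library 06 (log2 fold change -0.16), WT library 02 or WT library 03, and with DESeq2, library size alone or upper-quartile scaling. Its adjusted p ran from 0.00966 to 0.277. Its paralog Ndufa4l2, known as a hypoxia-induced gene, had 3 to 9 counts in KO libraries and 3 to 7 in WT libraries and was not tested.

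**Figure D3:**
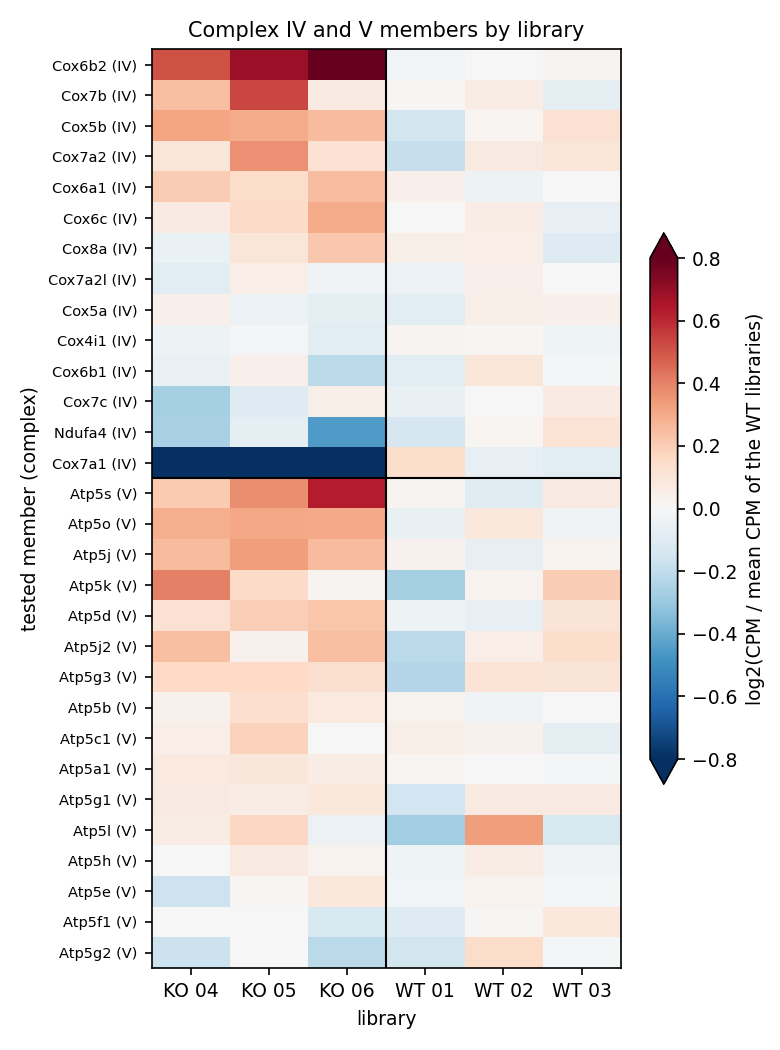
The heat map shows each tested member of complexes IV and V in every library, as log2 of its CPM over the mean CPM of the WT libraries, with KO libraries on the left. Cox6b2 is higher and Cox7a1 lower in all 3 KO libraries, and the colour scale ends at 0.8 in both directions.

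The remaining complex IV subunits did not pass. Cox4i1, which starts assembly of the holoenzyme with Cox5a, had a log2 fold change of -0.04 ± 0.06, and Cox5a had -0.02 ± 0.08. The highest value among the rest was 0.20 ± 0.11 for Cox7a2 (adjusted p = 0.194). The lowest was -0.11 ± 0.09 for Cox7c (adjusted p = 0.498). Cox7a2l, which joins complexes III and IV in supercomplexes, had -0.02 ± 0.08. Cox4i2, the lung and hypoxia form of subunit 4, had 1 to 4 counts in KO libraries and 1 to 3 in WT libraries. Cox7b2 had 2 to 4 counts in KO libraries and 1 to 4 in WT libraries. These were too few for a test, and a count of 3 corresponds to 0.569 to 0.716 CPM here.

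Which paralog supplied a subunit was described as its share of the family's level, in CPM per kilobase of the principal GENCODE transcript. Cox6b2 made up 36.8 ± 5.06% of the Cox6b family in KO and 25.3 ± 1.13% in WT (SD, n = 3 each). In the Cox7a family, Cox7a2 made up 47.3 ± 1.27% in KO and 41.8 ± 2.27% in WT, Cox7a2l 51.7 ± 1.80% and 53.1 ± 1.56%, and Cox7a1 1.04 ± 0.563% and 5.03 ± 0.739%. In the Atp5g family, whose genes encode the same mature c-ring subunit, Atp5g3 made up 65.8 ± 1.19% in KO and 61.9 ± 1.59% in WT. Atp5g2 made up 27.3 ± 1.43% in KO and 31.2 ± 1.54% in WT, and Atp5g1 6.91 ± 0.256% and 6.88 ± 0.234%. Without overlap between KO and WT libraries were the shares of Cox6b1, Cox6b2, Cox7a1, Cox7a2, Atp5g2 and Atp5g3. For each of these the 2-sided exact permutation test gave p = 0.1, the smallest that 3 against 3 libraries allow, or 0.283 after Benjamini-Hochberg adjustment over the 17 shares compared. The other shares had an exact permutation p of at least 0.5. Shares within a family add to a fixed whole, so they are not independent results. Those of Cox6b1 and Cox6b2 mirror each other, and that of Atp5g2 nearly mirrors that of Atp5g3. Of the 36-base stretches of Atp5g2, 87.6% occur in other genes, so its share, and with it every share of the Atp5g family, is uncertain. In each of the Cox4i, Cox6a, Cox7b and Cox8 families 1 paralog (Cox4i1, Cox6a1, Cox7b or Cox8a) held at least 97.4% of the level in every library.

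**Figure D4:**
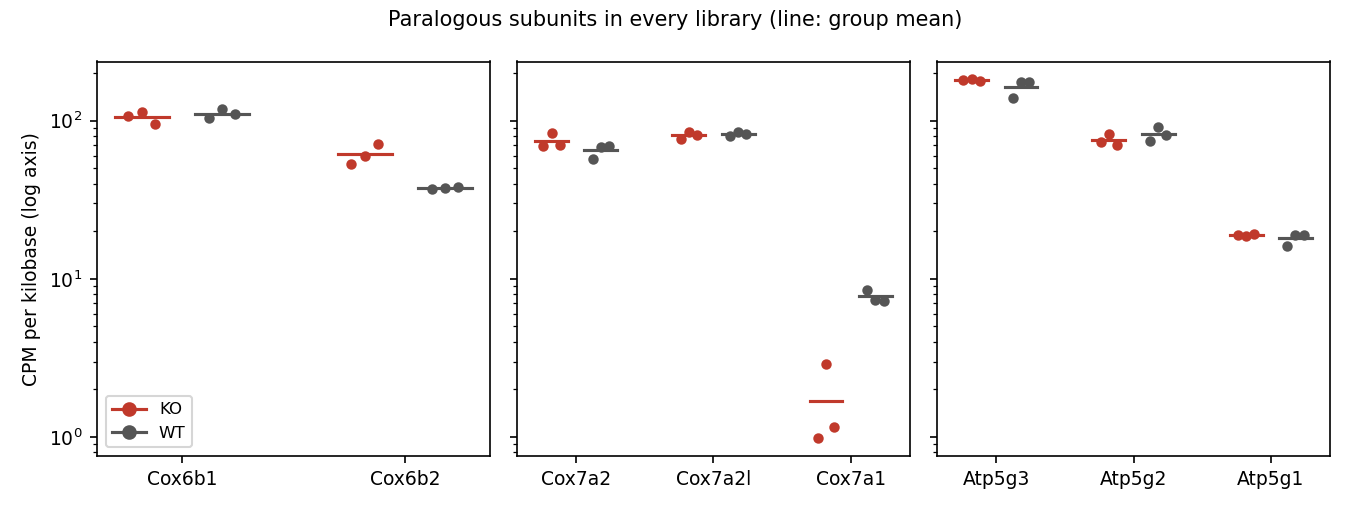
The plot shows CPM per kilobase on a log axis for the Cox6b, Cox7a and Atp5g families, with KO left of WT for each gene and a line at each group mean (n = 3 each). Cox6b2 is higher and Cox7a1 lower in all 3 KO libraries, and Cox7a1 lies far under the other genes of its family.

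In complex V, 2 of 16 members rose and 0 fell (12.5% called, against 17.3% of all tested genes). Of the fitted changes, 13 of 16 were above 0 (51.4% of all tested genes), with a median of 0.08. Atp5o, the oligomycin-sensitivity subunit (OSCP) that joins the F1 head to the peripheral stalk, had 167, 169 and 168 CPM in KO libraries 04, 05 and 06, against 131, 145 and 134 CPM in WT libraries 01, 02 and 03. The KO libraries lay close together and all above WT, with a log2 fold change of 0.30 ± 0.06 (edgeR adjusted p = 0.000195). It was called in every alternative, with adjusted p from 8.72e-05 to 0.00268. However, 67.1% of its 36-base stretches occur in other annotated genes, and 54.2% of its exon bases overlap those of Donson on the same strand, so its count is uncertain.

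Atp5d, the delta subunit of the F1 central stalk, had 176, 185 and 188 CPM in KO libraries 04, 05 and 06, against 156, 154 and 173 CPM in WT libraries 01, 02 and 03. The groups did not overlap, with KO library 04 just above WT library 03. Atp5d changed by 0.18 ± 0.06 on the log2 scale (edgeR adjusted p = 0.0288). The call was lost without KO library 05, KO library 06, WT library 01 or WT library 02 and with DESeq2, with log2 fold changes of 0.15 to 0.23 and adjusted p from 0.0131 to 0.150 over the alternatives.

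The catalytic core of complex V had fitted changes near the median of the complex, 0.08. Atp5b, the catalytic beta subunit, had 1870, 2003 and 1926 CPM in KO libraries 04, 05 and 06, against 1861, 1792 and 1829 CPM in WT libraries 01, 02 and 03. Atp5a1, the alpha subunit, had 1203, 1217 and 1187 CPM in KO libraries, against 1152, 1140 and 1133 CPM in WT libraries. In both genes every KO library was above every WT library, yet neither passed (log2 fold changes 0.08 ± 0.04 each, adjusted p = 0.162 for Atp5b and 0.223 for Atp5a1). The highest fitted change in the complex, 0.40 ± 0.29, was that of Atp5s, a factor B-like gene with 27 to 31 counts in KO libraries and 19 to 22 in WT libraries (adjusted p = 0.376). The lowest was that of Atp5g2, -0.12 ± 0.10 (adjusted p = 0.434).

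Complex I had 1 call among 45 members (2.22%, against 17.3% of all tested genes). Ndufa11, an accessory subunit of the membrane arm that helps hold complex I together, had 66.2, 65.7 and 66.0 CPM in KO libraries 04, 05 and 06, against 52.2, 55.4 and 51.3 CPM in WT libraries 01, 02 and 03. The KO libraries were nearly equal and all above WT. The fitted change was 0.32 ± 0.09 on the log2 scale (edgeR adjusted p = 0.00888), with adjusted p from 0.00577 to 0.0609 over the alternatives, and the call was lost with DESeq2, which gave the highest. Of its 36-base stretches, 23.1% occur in other genes, and 6.41% of its exon bases overlap Vmac on the opposite strand.

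Among the 7 core subunits of complex I in this set, 0 passed by edgeR (17.3% of all tested genes) and 0 by DESeq2 (10.6%). At an unadjusted p under 0.05, 1 passed (29.4%). Of the fitted changes, 6 of 7 were above 0, against 51.4% of all tested genes. Among the 29 accessory subunits, 22 were above 0 (51.4% of all tested genes) and the median was 0.07. Ndufb3 had the highest value, 0.41 ± 0.18 (adjusted p = 0.102), and was called without KO library 05 (0.59, adjusted p = 0.0220). Ndufa3 had the lowest, -0.36 ± 0.17 (adjusted p = 0.132), and was also called without KO library 05 (-0.55, adjusted p = 0.0384). KO library 05 was thus the KO library nearest to WT in both genes. Ndufs4, a late-assembled subunit of the electron input arm, had 0.29 ± 0.11 (adjusted p = 0.0588).

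In complex II, 0 of 8 genes passed by edgeR, against 17.3% of all tested genes. At an unadjusted p under 0.05, 1 passed (29.4% of all tested genes), and DESeq2 called 0 (10.6%). The catalytic subunits Sdha and Sdhb had log2 fold changes of -0.01 ± 0.06 and -0.08 ± 0.08. Of the membrane anchors, Sdhc had 0.02 ± 0.10, and Sdhd had the highest value of the complex, 0.25 ± 0.10 (adjusted p = 0.0640). Sdhd had 58.2, 61.1 and 60.8 CPM in KO libraries 04, 05 and 06, against 46.7, 58.3 and 46.3 CPM in WT libraries 01, 02 and 03. WT library 02 reached the level of KO library 04, and without it Sdhd was called (0.36, adjusted p = 0.0146). The lowest value was -0.13 ± 0.29 for the assembly factor Sdhaf3, which turned to 0.20 without WT library 01.

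In complex III, 0 of 8 genes passed by edgeR, against 17.3% of all tested genes. At an unadjusted p under 0.05, 2 passed (29.4% of all tested genes), and DESeq2 called 0 (10.6%). All 8 had overlapping groups, whereas 31.6% of all tested genes had groups that did not overlap. Uqcrfs1, the Rieske iron-sulfur protein, had 84.5, 86.2 and 95.6 CPM in KO libraries 04, 05 and 06, against 71.6, 88.7 and 68.9 CPM in WT libraries 01, 02 and 03 (log2 fold change 0.21 ± 0.08, adjusted p = 0.0699). Uqcr11 had the highest value, 0.22 ± 0.11 (adjusted p = 0.152), and was called without WT library 02 (0.40, adjusted p = 0.0112). WT library 02 was the highest WT library in both genes. The core subunits Uqcrc1 and Uqcrc2 had 0.07 ± 0.05 and 0.06 ± 0.08. The lowest value, -0.01 ± 0.07, was that of Uqcrq, whose sign turned in 5 alternatives.

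Assembly factors, which are not part of the finished complexes, were looked at apart from the subunits. Of the 13 within the set, 0 passed by edgeR (17.3% of all tested genes) and 0 by DESeq2 (10.6%). At an unadjusted p under 0.05, 1 passed (29.4%). The median was 0.17, and 11 were above 0 (51.4% of all tested genes). Ndufaf6 had the highest value, 0.33 ± 0.16 (adjusted p = 0.146), with all KO libraries above all WT libraries. For the factors with other names, 0 of 9 tested passed by edgeR for complex I. For complexes III and V it was 0 of 6 and 0 of 7. The counts were likewise 0 by DESeq2 and at an unadjusted p under 0.05, against the same shares of all tested genes. For complex IV, 3 of 21 rose and 0 fell, against 8.13% and 9.13% of all tested genes. Coa5 had 68.7, 73.6 and 69.2 CPM in KO libraries, against 49.2, 56.1 and 57.0 CPM in WT libraries (log2 fold change 0.39 ± 0.09, edgeR adjusted p = 0.00101). Taco1, which activates translation of mitochondrial Cox1, rose by 0.68 ± 0.19 (adjusted p = 0.00539), and Surf1, which acts early in assembly, rose by 0.39 ± 0.14 (adjusted p = 0.0499). DESeq2 kept 1 of these 3 calls, that of Coa5. The call of Taco1 was lost with DESeq2 (adjusted p = 0.0565) and without WT library 03 (adjusted p = 0.0609), the highest of its alternatives, which began at 0.00363. Surf1 lost its call in 12 of 15 alternatives, among them each of the 6 that left out a library (adjusted p from 0.0386 to 0.229).

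The partner subunits encoded in mitochondrial DNA were mostly higher in KO. Of 9 tested, 7 rose and 0 fell, against 8.13% and 9.13% of all tested genes. Their median log2 fold change was 0.66, against 0.09 for the nuclear members and 0.01 for all tested genes. All 13 together summed to 2021 to 2430 CPM in KO libraries and to 1437 to 1516 CPM in WT libraries. mt-Nd2, a complex I subunit, had 186, 136 and 154 CPM in KO libraries 04, 05 and 06, against 88.8, 89.8 and 85.6 CPM in WT libraries 01, 02 and 03 (log2 fold change 0.85 ± 0.08, edgeR adjusted p = 1.84e-13). mt-Co1, the catalytic subunit of complex IV, had 940, 864 and 852 CPM in KO libraries, against 713, 685 and 647 CPM in WT libraries (0.38 ± 0.05, adjusted p = 4.74e-10). In both genes all KO libraries were above all WT libraries. mt-Cytb, of complex III, lost its call (0.68 ± 0.16, adjusted p = 0.0464) without WT library 01 or WT library 03, with adjusted p up to 0.190. Only 9 of the 13 rows had enough counts for a test. mt-Co2, mt-Co3 and mt-Atp6 had at most 11 counts in a KO library and at most 7 in a WT library, far under mt-Nd2 and mt-Co1. Mitochondrial rows held 0.204% to 0.243% of the counts in KO libraries and 0.141% to 0.152% in WT libraries, and the part of this difference in the nuclear results was not tested.

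Between the complexes, electrons are carried by ubiquinone and cytochrome c. Of 21 tested genes for these carriers and the enzymes that feed them, 2 rose and 3 fell (8.13% and 9.13% of all tested genes). The ubiquinone synthesis gene Coq4 had 25.1, 23.5 and 23.3 CPM in KO libraries, against 16.1, 12.3 and 12.4 CPM in WT libraries (log2 fold change 0.81 ± 0.16, edgeR adjusted p = 6.75e-05), and Coq5 rose by 0.30 ± 0.11 (adjusted p = 0.0389). Gpd2 and Dhodh, dehydrogenases that pass electrons to ubiquinone, fell, with log2 fold changes of -0.40 ± 0.06 (adjusted p = 8.71e-08) and -0.58 ± 0.08 (adjusted p = 1.27e-07). Coq10a also fell (-0.80 ± 0.29, adjusted p = 0.0432), with overlapping groups. DESeq2 kept 3 of these 5 calls and lost Coq5 and Coq10a. The call of Coq5 was also lost without any of KO libraries 04, 05 and 06 and WT libraries 01 and 03 and with weaker filters (adjusted p from 0.0284 to 0.168 over the alternatives). Coq10a lost its call without the same libraries (adjusted p from 0.0109 to 0.414) and had a log2 fold change of -0.47 without WT library 01. Neither cytochrome gene passed: Cyc1, the cytochrome c1 subunit of complex III that the prefixes leave out, had 0.11 ± 0.06 (adjusted p = 0.207), and Cycs had -0.19 ± 0.20 (adjusted p = 0.588).

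**Figure D5:**
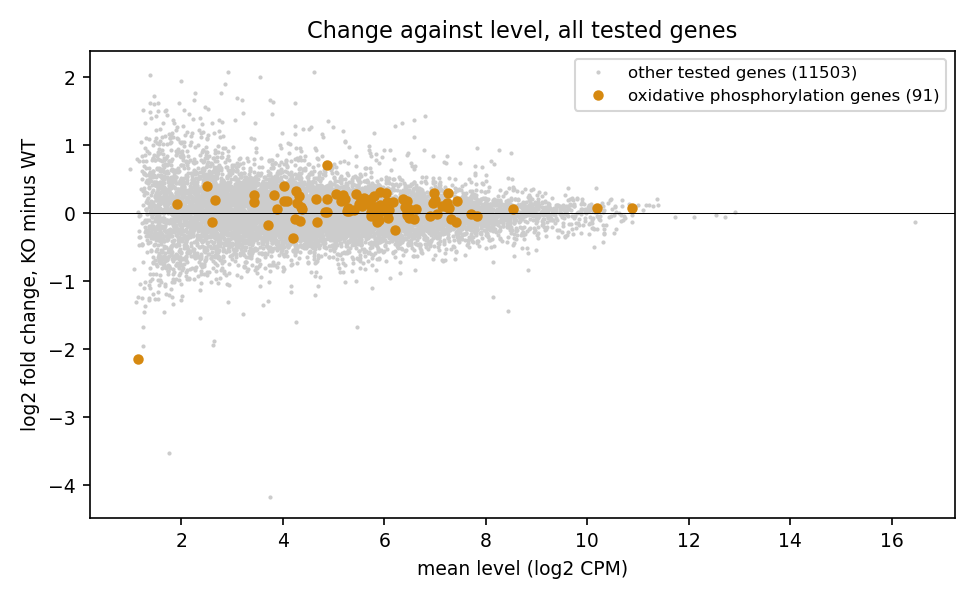
The plot shows the log2 fold change, KO minus WT, against the mean level in log2 CPM for the 91 tested oxidative phosphorylation genes and the other tested genes. Most of the oxidative phosphorylation genes lie between levels of 4 and 8 and near 0, with Cox7a1 at the low end of the levels and Atp5b and Atp5a1 at the high end.

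Levels, compared per kilobase, spread widely within the set. Atp5b was the highest at 1009 CPM per kilobase in KO and 954 in WT (means, n = 3 each), followed by Atp5a1 with 487 in KO and 462 in WT. Atp5o, Ndufa7, Cox4i1 and Cox8a came next, with 282 to 317 CPM per kilobase in KO and 258 to 309 in WT. Sdhaf3 was the lowest tested member in both groups, with 1.27 in KO and 1.36 in WT. Cox7a1 was next to it in KO, with 1.68, but at 7.73 in WT it lay above several others, such as Sdhaf1 with 2.52 in KO and 2.21 in WT. The lengths are those of 1 principal transcript a gene, and a long annotated transcript, as for Atp5g1, lowers the level.

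In the authors' deposited table, which holds their own test, 6 members had an FDR under 0.05, against 8.75% of all rows with a count. The authors' deposited table gave signed folds of 1.63 for Cox6b2, 1.22 for Cox5b, 1.15 for Cox6a1, 1.23 for Atp5o, 1.24 for Ndufa11 and -4.40 for Cox7a1, where a negative value means lower in KO. Cox7b, Atp5d and Ndufa4 had an FDR of 0.252, 0.121 and 0.287 in the authors' deposited table.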

How the data were processed

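Total RNA of 3 KO and 3 WT EpiLC libraries was sequenced after rRNA depletion with a directional kit, as the labels' protocols say. One table of 49585 rows was deposited, with whole-number read counts per gene and library, not normalized. Its p-values and FDR values, and a signed fold score, come from the authors' own WT against KO test, per the file headers. The submitters' processing notes name mm10 and edgeR. The aligner, the counting program and its strand and multiple-mapping settings are not given in these sources. Columns of counts name a genotype and a library and were assigned to groups by name; 18 other columns of values per library were not used.

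Genes were filtered with filterByExpr, scaled with TMM (factors 0.987 to 1.02) and tested with edgeR 4.0.16 (robust quasi-likelihood, R 4.3.3), KO against WT, with group as the only term. The standard error is the size of the log2 fold change divided by the square root of F. The common biological coefficient of variation was 5.03%. The row Gm26917 held 8.34% to 9.23% of counts in KO and 8.58% to 10.2% in WT. DESeq2 1.42.0, other scalings and filters, and leaving out each library were alternatives. The pipeline was tested on simulated data. Transcript lengths, overlaps and shared 36-base stretches came from GENCODE M21 (GRCm38). The named genes are every called member, the paralog families, the extremes of each complex and up to 3 called genes per direction of each other list; further genes were chosen after their values were seen. Members and lists were chosen with earlier results of these data known.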

Additional observations from a re-analysis of the deposited data

How the results depend on the processing

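No paired analysis was possible because the count columns carry no replicate number that matches the labels. Among the other scalings, the largest shift of the median of all genes was 0.017 (log2), with library size alone. DESeq2 called 498 genes higher and 636 lower over all genes, 3 members higher and 0 lower (with 2 adjusted p-values, of Cox7a1 and Sdhaf4, not given), 0 higher in complex I, 2 higher and 0 lower in complex IV, 1 higher in complex V, and 2 higher and 5 lower among the other genes of the pathway, against 8 and 8. With library size alone, and likewise with upper-quartile factors, 1 member fell, in complex IV, 2 rose in complex I, and 1 each rose in complexes II and III. Of the other pathway genes, 5 rose with a filter of 10 summed counts and 4 with no filter.

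When 1 library was left out, 5 to 10 members rose and 1 to 3 fell. In complex I 1 to 3 rose and 0 to 1 fell, in complex II 0 to 1 rose, in complex III 0 to 2 rose, in complex IV 2 to 4 rose and 1 to 2 fell, and in complex V 1 to 2 rose. Of the other pathway genes 3 to 7 rose and 5 to 7 fell. Over all genes 719 to 823 rose and 820 to 923 fell.

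Both of the following were chosen after seeing the data. With members of at most 20% shared 36-base stretches alone, 3 rose: 0 in complex I, 2 in complex IV and 1 in complex V. With Ndufa4 counted in complex I, 1 member fell there and 1 in complex IV.

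The summed level of complex II was 1.03 times WT with library size alone, and 0.995 to 1.04 times WT with 1 library left out. The log2 fold change changed sign with 1 library left out for Cox7a2l (range -0.061 to 0.015, above 0 without KO library 04), Sdhaf3 (-0.33 to 0.20, above 0 without WT library 01) and Uqcrq (-0.046 to 0.013, above 0 without KO library 06 and without either of WT libraries 01 and 02). Uqcrq was also above 0 with library size alone (0.0058) and upper-quartile factors (0.0039). The cause was not tested. The median of the members stayed between 0.07 and 0.10. Depth limits Cox7a1, Cox4i2, Cox7b2 and Ndufa4l2, which had at most 16 counts in a library.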

Other observations

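The tricarboxylic acid cycle and the pyruvate dehydrogenase complex supply NADH and succinate to complexes I and II. Among 21 tested genes, 1 rose and 3 fell, against 8.13% and 9.13% of all tested genes. The median log2 fold change of the list was -0.06. Suclg2, a succinyl-CoA ligase subunit, had 96.9, 116 and 106 CPM in KO libraries 04, 05 and 06, against 142, 147 and 155 CPM in WT libraries 01, 02 and 03 (log2 fold change -0.48 ± 0.07, edgeR adjusted p = 7.92e-08). All KO libraries were below all WT libraries. Pdhb, a pyruvate dehydrogenase subunit, also fell (-0.26 ± 0.07, adjusted p = 0.00879), as did the mitochondrial isocitrate dehydrogenase Idh2 (-0.23 ± 0.08, adjusted p = 0.0289). Mdh2, the mitochondrial malate dehydrogenase, rose (0.15 ± 0.05, adjusted p = 0.0358). DESeq2 kept 2 of these 4 calls, Suclg2 and Pdhb, which passed in every alternative. The call of Idh2 was also lost without KO library 04, KO library 05, WT library 01 or WT library 02 (adjusted p from 0.0273 to 0.109 over the alternatives). Mdh2 lost its call without KO library 04, KO library 05, WT library 01 or WT library 03 and with weaker filters (adjusted p from 0.0181 to 0.161).

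Among 15 tested regulators of mitochondrial biogenesis, 2 rose and 2 fell, against 8.13% and 9.13% of all tested genes. Esrrb, an estrogen-related receptor that is also one of the naive ESC markers, had 66.0, 73.8 and 71.7 CPM in KO libraries 04, 05 and 06, against 147, 114 and 116 CPM in WT libraries 01, 02 and 03 (log2 fold change -0.84 ± 0.08, edgeR adjusted p = 7.27e-14). Gabpb2, a subunit of the ETS factor GABP, fell by 0.25 on the log2 scale (SE 0.09, adjusted p = 0.0426). Tfb2m, a mitochondrial transcription factor, rose (0.81 ± 0.26, adjusted p = 0.0203), and so did Yy1 (0.22 ± 0.08, adjusted p = 0.0346). DESeq2 kept 1 of these 4 calls, that of Esrrb, which passed in every alternative. Gabpb2 lost its call in 9 of 15 alternatives, among them those without KO libraries 05 and 06 and without each WT library (adjusted p from 0.0180 to 0.219). Tfb2m lost its call without KO library 05, KO library 06, WT library 01 or WT library 03 (adjusted p from 0.0135 to 0.125). Yy1 lost its call without any 1 of the KO libraries, WT library 01 or WT library 02 and with no filter (adjusted p from 0.0217 to 0.147). In each of these 4 genes the KO and WT libraries did not overlap, against 31.6% of all tested genes. The 4 were named because they were called, so this adds no support to the calls. Ppargc1a, the coactivator PGC-1alpha, had 0, 1 and 2 counts in the KO libraries and 0 in each WT library.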
